A study of Mus musculus with 37 samples.

Results

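The transcriptome of bone marrow-derived macrophages (BMDMs) lacking *Arntl* was compared with that of wild-type (WT) BMDMs 48 h after activation of Toll-like receptor 4 (TLR4). The comparison is between 2 of the 37 samples of the series, 1 polyA RNA library from Arntl-/- cells and 1 from WT cells, over all 24016 genes of the expression table. Of these genes, 10212 had a mean of at least 50 reads over the 2 libraries and were compared, and 13804 had fewer and were not.

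The cells came from the bone marrow of male mice aged 6 to 9 weeks and were cultured with the growth factor M-CSF for 6 days. WT cells were C57BL/6J, and Arntl-/- mice carry a deletion of *Arntl* in every cell on a C57BL/6 background. The labels and the study's methods name a commercial source for the C57BL/6J mice, while its results section calls the controls littermates. Both cultures had received Kdo2-Lipid A (KLA), the part of bacterial lipopolysaccharide that TLR4 recognizes, 48 h before RNA was collected. Libraries of the same 2 genotypes at 0, 6 and 24 h, 1 for each condition, are used here only for comparison. With 1 library a side, no difference has a replicate check and no test between the genotypes was made. Differences between cultures, mice or RNA preparations cannot be told apart from differences between genotypes.

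Bmal1, the protein that *Arntl* encodes, pairs with CLOCK and activates genes that carry E-boxes. Among these are the *Per* and *Cry* genes, whose products inhibit the pair, and *Nr1d1* and *Nr1d2*, which encode the nuclear receptors RevErb-α and RevErb-β. The RevErbs repress transcription, and *Arntl*, *Cry1* and *Nfil3* are known among their targets. In macrophages TLR4 signals through NF-κB and interferon regulatory factors, and many genes induced in the first hours are later shut off.

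Values are FPKM, reads per kb of exon length with each library scaled to the same total, divided by a median-of-ratios size factor (scaled FPKM). The ratio is the log2 of Arntl-/- over WT after adding 0.1 to each scaled FPKM, so that a positive ratio means a higher level in Arntl-/- cells. The reads behind each value were worked out from the FPKM, and the 95% interval after a ratio is an exact counting interval from those reads. It covers counting error only. The 2 libraries at 48 h were the shallowest of the 8 used, with 9191160 reads on genes in WT and 8587556 in Arntl-/- cells.

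At 48 h, 550 genes (5.39% of those compared) were at least 1.5-fold higher in Arntl-/- cells and 519 (5.08%) were at least 1.5-fold lower. The median ratio of all genes compared was -0.02. Both directions together held 1069 genes (10.5%), and the counting interval of each excluded a ratio of 0. Most of these genes had few reads. Among the 1195 genes with a mean of 50 to 100 reads, 36.9% were past the 1.5-fold limit, whereas among the 2368 genes with at least 1000 reads 0.971% were. The ratios had an SD of 0.69 in the first of these bins and 0.19 in the second, where counting alone gives about 0.24 and 0.05. The ratios were thus more widely spread than counting error at either depth, and a counting interval that excludes 0 understates the error of a single gene. Of the 4433 genes with a mean of at least 500 reads, 32 (0.722%) were higher and 40 (0.902%) lower, 1.62% in all. That minimum was chosen after seeing the data.

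**Figure D1:**
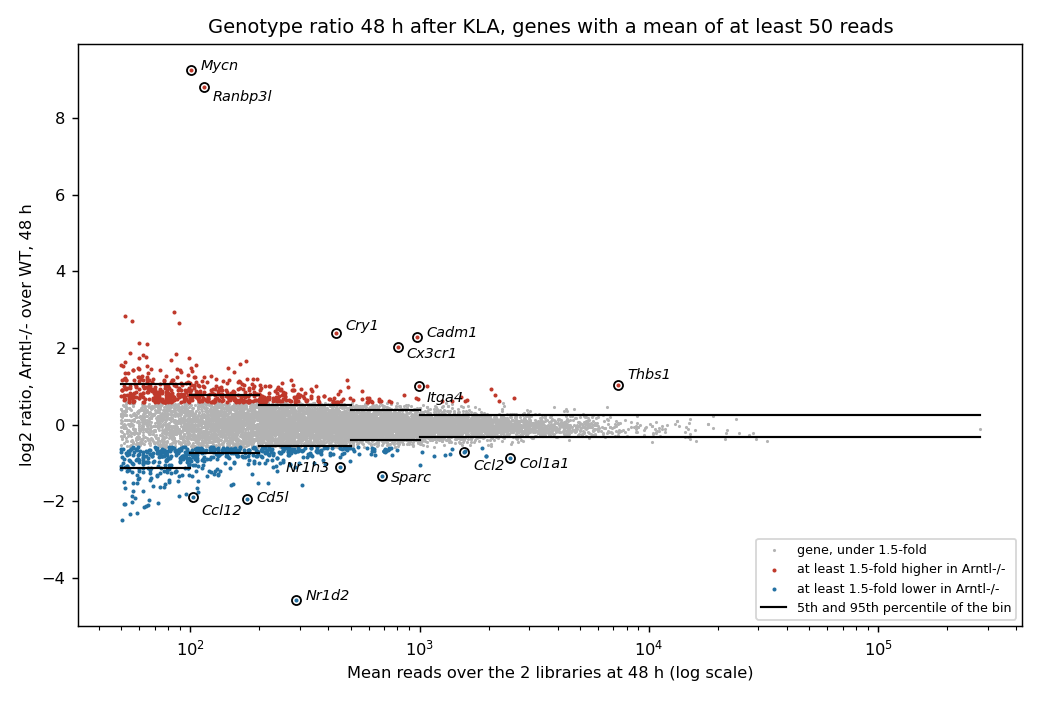
Each point is 1 of 10212 genes, with its mean reads over the 2 libraries at 48 h on a log scale (x) and its log2 ratio of Arntl-/- over WT (y). Black lines give the 5th and 95th percentile of the ratios in each bin of reads, which narrow from -1.14 and 1.06 at 50 to 100 reads to -0.33 and 0.26 at 1000 reads or more; *Mycn* and *Ranbp3l* had 0 reads in WT cells, so their height depends on the 0.1 that was added.

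The cells of both libraries carried macrophage transcripts at similar levels. *Csf1r*, which encodes the M-CSF receptor, was at 2539 scaled FPKM in WT and 2733 in Arntl-/- cells, and *Spi1*, which encodes the lineage factor PU.1, at 1581 and 1582. Of 24 macrophage identity genes, 1 was past the limit, *Cebpb* (ratio 0.70), where 10.5% of all genes were, and the median ratio was -0.03. Of the list 23 had a mean of at least 500 reads, where 1.62% of genes were past it. Markers of other blood cells differed in level. Of 18 lymphocyte and NK cell markers 13 had no read in either library, and 7 of 16 neutrophil and granulocyte markers, 7 of 14 erythroid and megakaryocyte markers and 7 of 10 mast cell and basophil markers had none. Others were abundant in both libraries, among them the granulocyte genes *Mmp8* (1642 scaled FPKM in WT and 1941 in Arntl-/- cells) and *S100a8* (910.3 and 905), and *Pf4* (2155 and 2201), a platelet factor gene. The summed level of the neutrophil list was 2935 in WT and 3272 in Arntl-/- cells, and that of the erythroid and megakaryocyte list 2240 and 2302. Of the neutrophil list 4 genes had enough reads to be compared. Among them *Cebpe*, a gene of granulocyte maturation, was lower (-1.01), as was *Fscn1* (-0.68) of 3 dendritic cell markers, and *Cd79b* (0.60), the lymphocyte marker compared, was higher from 57 and 83 reads. Of 8 osteoclast markers 1 was higher (*Car2*, 2.94) and 1 lower (*Atp6v0d2*, -0.63), where 5.39% and 5.08% of all genes were. Fibroblast and stromal markers were present and lower in Arntl-/- cells, and they are described with the gene groups.

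The clock genes held some of the largest differences. Of 28 clock genes, 21 had enough reads to be compared, and 4 of these were lower and 3 higher past the limit, where 5.08% and 5.39% of all genes were. *Nr1d2* (NM_011584, chromosome 14 of mm9, 19036570 to 19071620, minus strand) was at 90.2 scaled FPKM in WT and 3.70 in Arntl-/- cells, from 557 and 22 reads. It was 23.8-fold lower, a ratio of -4.57 (-5.29 to -3.99), the lowest of all genes compared. *Nr1d1* (NM_145434, chromosome 11, 98629246 to 98636691, minus strand) was at 37.0 and 16.7, a ratio of -1.15 (-1.62 to -0.70). The RevErb-β transcript was thus reduced further than that of RevErb-α, and the counting intervals of the 2 ratios did not overlap.

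*Arntl* itself (NM_007489, chromosome 7, 120350979 to 120457640, plus strand) was at 38.7 scaled FPKM in WT and 20.2 in Arntl-/- cells, from 149 and 75 reads (ratio -0.93, -1.36 to -0.53). The value counts reads on all exons of the transcript, and the deleted exons were not analysed separately here. Of the 30 other genes compared within 5 Mb of *Arntl*, none was past the limit in either direction, where 10.5% of all genes were. Their ratios ran from -0.47 (*Mical2*) to 0.48 (*Akip1*). *Csnk1e*, which encodes a kinase that acts on Per proteins, was the fourth clock gene below the limit, at -0.62 (-0.82 to -0.43), and without size factors it was at -0.58 and no longer past it. *Clock*, the gene for the partner of Bmal1, was at -0.30 (-0.47 to -0.14) and *Rora*, which encodes an activator at RevErb sites, at -0.01 (-0.20 to 0.18).

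Among the repressors, *Cry1* (NM_007771, chromosome 10, 84594445 to 84647799, minus strand) was at 35.7 scaled FPKM in WT and 187 in Arntl-/- cells, from 143 and 722 reads. It was 5.23-fold higher, a ratio of 2.39 (2.13 to 2.66). *Per2* was at 15.2 and 34.7, a ratio of 1.18 (0.87 to 1.52). The other *Per* and *Cry* genes were not past the limit. *Cry2* was at 0.36 (0.14 to 0.58), *Per1* at 0.18 (0.02 to 0.35) and *Per3* at -0.35 (-0.78 to 0.07), so the members of each family differed from one another. Of the output genes, *Nfil3*, which encodes a repressor at D-boxes, was past the limit at 1.16 (0.90 to 1.43). *Dbp*, whose product activates the same sites, was at -0.49 (-0.86 to -0.14). *Tef*, *Bhlhe40*, *Bhlhe41*, *Wee1* and *Nampt* lay between 0.10 and 0.32.

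The 7 clock genes that could not be compared had few reads. *Ciart*, which encodes a further repressor of the CLOCK and Bmal1 pair, had 50 reads in WT and 18 in Arntl-/- cells, a ratio of -1.41 (-2.28 to -0.62). *Npas2*, the gene for a protein that can take the place of CLOCK, had 0 reads in WT and 11 in Arntl-/- cells, and was at least 3.81-fold higher when the WT value is set to a floor of 3 reads. *Fbxl21* had 20 and 0 reads, at least 6.42-fold lower against the same floor. *Arntl2* had 4 and 11, *Hlf* 0 and 5, and *Rorb* had no read in either library.

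**Figure D2:**
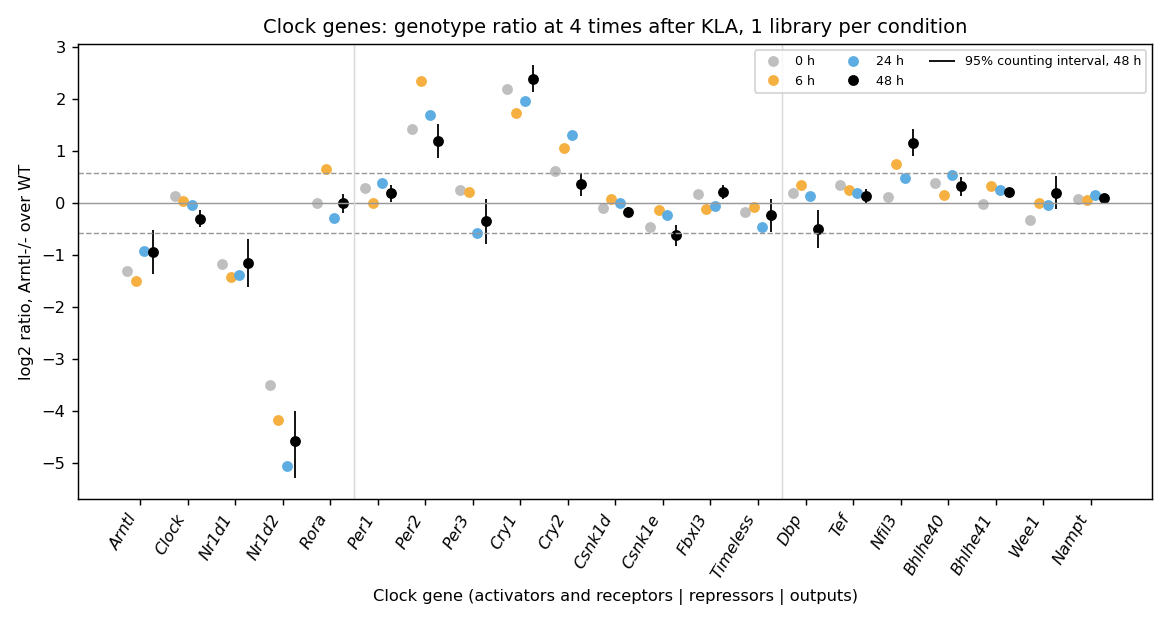
The log2 ratio of Arntl-/- over WT (y) is plotted for the 21 clock genes compared (x), at 0, 6, 24 and 48 h after KLA, with 1 library per condition and the 95% counting interval drawn at 48 h only. Dashed lines mark 1.5-fold; *Arntl*, *Nr1d1* and *Nr1d2* lie below the lower line at every time and *Per2* and *Cry1* above the upper line, while *Cry2* is within the lines at 48 h alone.

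The promoters of 4 of these genes are shown because the genes are placed under the same pair of activators while their ratios at 48 h differed in sign, *Cry1* lying above 0 and the other 3 below. *Ciart* is included although it had too few reads to be compared and was above 0 at the earlier times. They are the 250 bases before and 50 after the start site in RefSeq (build GRCm38.p6), printed 5′ to 3′ on the gene's strand, with the E-box CACGTG and the related CACGTT, which reads as AACGTG on the other strand, in capitals. They lie at chr10:85185005-85185304 for *Cry1*, chr3:95882179-95882478 for *Ciart*, chr11:98775328-98775627 for *Nr1d1* and chr14:18239057-18239356 for *Nr1d2*, all on the minus strand.
Cry1: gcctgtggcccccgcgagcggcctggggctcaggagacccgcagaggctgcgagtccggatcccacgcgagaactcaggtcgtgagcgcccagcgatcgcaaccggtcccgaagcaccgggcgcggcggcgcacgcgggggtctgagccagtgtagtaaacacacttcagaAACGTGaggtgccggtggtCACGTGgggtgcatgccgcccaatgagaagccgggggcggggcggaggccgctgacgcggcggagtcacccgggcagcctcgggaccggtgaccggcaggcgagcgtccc
Ciart: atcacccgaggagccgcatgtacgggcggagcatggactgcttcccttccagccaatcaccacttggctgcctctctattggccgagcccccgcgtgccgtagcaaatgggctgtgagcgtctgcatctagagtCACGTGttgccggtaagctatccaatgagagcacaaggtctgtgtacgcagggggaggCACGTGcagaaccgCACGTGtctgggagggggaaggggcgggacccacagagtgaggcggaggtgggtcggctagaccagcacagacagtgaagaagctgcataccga
Nr1d1: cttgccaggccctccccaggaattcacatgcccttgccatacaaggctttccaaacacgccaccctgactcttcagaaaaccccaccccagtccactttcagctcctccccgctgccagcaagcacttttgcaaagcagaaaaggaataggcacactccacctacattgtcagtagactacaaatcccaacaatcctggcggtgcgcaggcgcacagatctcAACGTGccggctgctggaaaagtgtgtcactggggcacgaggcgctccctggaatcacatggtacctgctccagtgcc
Nr1d2: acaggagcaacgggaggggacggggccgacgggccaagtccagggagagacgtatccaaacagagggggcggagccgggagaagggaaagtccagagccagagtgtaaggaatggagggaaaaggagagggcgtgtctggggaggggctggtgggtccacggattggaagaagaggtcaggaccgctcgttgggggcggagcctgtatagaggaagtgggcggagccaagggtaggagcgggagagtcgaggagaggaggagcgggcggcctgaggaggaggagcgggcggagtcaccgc

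The *Cry1* promoter, of the most increased clock gene among those compared, holds AACGTG 79 bases and CACGTG 60 bases before the start. That of *Ciart* holds 3 copies of CACGTG, at 116, 58 and 44 bases. The *Nr1d1* window holds AACGTG at 28 bases and no CACGTG, and the *Nr1d2* window holds neither motif. Sequence outside these windows was not searched. From ChIP-seq of peritoneal macrophages, the study reports several sites of Bmal1 binding at regulatory regions of both genes. CACGTG is its own reverse complement, so both strands were searched at once, and it stands in 7.15% of the 32851 promoters of the table, while CACGTT stands in 4.68%. Of the 28 clock genes 22 had a promoter in the table and 5 held CACGTG (*Bhlhe41*, *Ciart*, *Cry1*, *Per1* and *Tef*). Among all genes compared, 7791 had a promoter and 12.3% of these held CACGTG. The share was 10.4% of the 412 genes higher at 48 h that had one, and 11.6% of the 397 lower ones, so neither set held CACGTG more often than the genes compared. CACGTT stood in 6.56% of the genes compared, 7.52% of the higher and 4.03% of the lower ones.

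Of the 7 clock genes past the limit at 48 h, 5 were past it in the same direction at all 4 times (*Arntl*, *Nr1d1*, *Nr1d2*, *Cry1* and *Per2*). The ratio of *Nr1d2* was -3.50, -4.18 and -5.06 at 0, 6 and 24 h, and that of *Nr1d1* -1.18, -1.42 and -1.38. *Cry1* was at 2.19, 1.73 and 1.96, and *Per2* at 1.43, 2.35 and 1.69. Others differed from this pattern. *Csnk1e* was at -0.45, -0.13 and -0.23 at the earlier times, within the limit. *Ciart* was at 0.40, 0.07 and 0.72, the last from 36 reads in WT and 89 in Arntl-/- cells and thus opposite in sign to its ratio at 48 h. *Cry2* was at 0.62, 1.07 and 1.30 before it was at 0.36, since between 24 and 48 h its scaled FPKM went from 38.5 to 58.3 in WT cells but fell by 0.35 on the log2 scale, to 74.8, in Arntl-/- cells. *Nfil3* was at 0.11, 0.75 and 0.47 before it was at 1.16, and over the same interval its level went from 99.4 to 65.6 in WT cells and from 138 to 146 in Arntl-/- cells.

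Over all genes, calls at 48 h were mostly not shared with earlier times, although the genotype ratios of different times share no library. Of 534 genes higher at 48 h that also had a mean of 50 reads at 24 h, 79 were higher at 24 h, which is 14.8% of the genes at 48 h and 23.6% of those at 24 h, where 3.30% of genes were higher. Of 497 lower genes, 59 were lower at 24 h, or 11.9% and 24.7%, where 2.36% of genes were lower. Only 10 genes were past the limit upward at all 4 times (*Cadm1*, *Clec2i*, *Cry1*, *Cx3cr1*, *Gm10677*, *Il23r*, *Itga1*, *Oaf*, *Per2* and *Tgtp1*) and 10 downward (*Aebp1*, *Arntl*, *Cd5l*, *Col3a1*, *Etl4*, *Nid2*, *Nr1d1*, *Nr1d2*, *Postn* and *Sparc*), of 10099 genes compared at all times. In these genes 4.49%, 4.01% and 5.45% were past the limit in either direction at 0, 6 and 24 h, and 10% were at 48 h. Across the 6926 genes with at least 200 reads in all 8 libraries, the SD of the ratio was 0.22, 0.23 and 0.22 at 0, 6 and 24 h and 0.25 at 48 h. In these genes 185 were past the limit at 48 h (81 higher and 104 lower), against 95, 149 and 88 at the 3 earlier times.

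Outside the clock, high ratios were found in genes of unlike function. *Cadm1*, which encodes an adhesion molecule, was at 59.6 scaled FPKM in WT and 289 in Arntl-/- cells (ratio 2.28, 2.11 to 2.45), and it was at 2.18, 2.64 and 2.56 at the earlier times. *Gm10677*, a noncoding transcript that lies inside *Cadm1* on the other strand, was at 2.66 (2.06 to 3.35), and since both strands were counted its reads and those of *Cadm1* cannot be told apart. *Cx3cr1*, which encodes the fractalkine receptor of monocytes and macrophages, was at 65.6 and 266 (ratio 2.02, 1.84 to 2.20). *Car2*, the gene for a carbonic anhydrase also used by osteoclasts, had 20 reads in WT and 149 in Arntl-/- cells (ratio 2.94, 2.27 to 3.70).

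*Mycn*, which encodes a Myc family transcription factor, had 0 reads in the WT library and 202 in the Arntl-/- library, and was at least 69.9-fold higher against a floor of 3 reads in that library. In the 6 libraries of the earlier times it had at most 6 reads, and none in Arntl-/- cells. *Ranbp3l* had 0 and 229 reads, at least 79.3-fold higher, and at most 6 reads in every earlier library. Each of these 2 genes therefore rests on 1 library. Besides them, *Npdc1*, *Sbsn*, *Macrod1* and *Olfml3* completed the 10 highest ratios, with at most 25 reads in WT cells.

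After *Nr1d2*, the lowest ratios belonged to genes with at most 117 reads in WT cells. They were *Ank1*, *Col8a1*, *Dph5*, *Nid1*, *Cenph*, *Ptar1*, *Tgfb3*, *Sclt1* and *Afp*, with ratios from -2.50 to -2.05. *Col8a1* (-2.34) and *Nid1* (-2.15), which encode a collagen and a basement membrane protein, were also lower at 0, 6 and 24 h, by ratios of -1.91, -1.55 and -1.81 and of -0.88, -0.72 and -1.32. *Dph5*, by contrast, was at 0.41, 0.12 and 0.45 before it was at -2.30.

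The inflammatory genes did not move as a block. Of 10 cytokine genes compared, 1 was past the limit, where 10.5% of all genes were. *Il1b* was at 428 scaled FPKM in WT and 699 in Arntl-/- cells (ratio 0.71, 0.57 to 0.84). *Tnf* was at 491 and 425 (ratio -0.21, -0.34 to -0.08) and *Il6* had 12 and 9 reads and was not compared. Of 20 effector enzymes and proteases, 3 were higher and none lower, where 5.39% and 5.08% of all genes were. Of the list 19 had a mean of at least 500 reads, where 0.722% of genes were higher and 0.902% lower. *Thbs1*, the gene for the matrix protein thrombospondin 1, was at 638 and 1313 (ratio 1.04, 0.99 to 1.09), and *Nos2*, which encodes inducible nitric oxide synthase, at 273 and 523 (0.94, 0.85 to 1.03). *Serpinb2*, which encodes a plasminogen activator inhibitor, was at 444 and 736 (0.73, 0.62 to 0.84). The medians of both groups were near that of all genes, at 0.03 and 0.00.

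Chemokine genes with enough reads to be compared were past the limit in the lower direction alone. Of 16 compared, 5 were lower and none higher, where 5.08% and 5.39% of all genes were, and 6 had a ratio above 0 (median -0.18). *Ccl2* was at 1843 scaled FPKM in WT and 1128 in Arntl-/- cells (ratio -0.71, -0.81 to -0.60). *Ccl7*, like it a ligand of the monocyte receptor CCR2, was at 774 and 443 (-0.80, -0.97 to -0.64), and *Ccl12*, a further one encoded in the same cluster on chromosome 11, was at 230 and 61.6 (-1.90, -2.43 to -1.40). *Cxcl10*, an interferon-inducible chemokine gene, was at 157 and 94.6 (-0.73, -1.05 to -0.41), and *Cxcl1*, a neutrophil chemoattractant gene, at -0.59 from 86 and 55 reads. Without size factors *Cxcl1* was at -0.55, and 4 of the chemokines were then lower. *Cxcl3* had the highest ratio of those compared at 0.29 (0.19 to 0.40). Of the chemokines under the minimum of reads, *Ccl22* had 6 reads in WT and 45 in Arntl-/- cells and *Cxcl11* had 0 and 12. With a minimum of 500 reads, 2 of the chemokines remained past the limit, *Ccl2* and *Ccl7*. Of 8 chemokine receptors compared, *Cx3cr1* alone was past the limit, where 10.5% of all genes were.

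These ratios at 48 h were reached in different ways. Between 24 and 48 h *Thbs1* went from 1315 to 638 scaled FPKM in WT cells and from 1368 to 1313 in Arntl-/- cells. *Itga4*, which encodes an integrin subunit and was named after its values were seen, went from 85.7 to 51.5 in WT cells and from 97.6 to 105 in Arntl-/- cells (ratio at 48 h 1.02, 0.89 to 1.16). *Cx3cr1* went from 111 to 65.6 in WT cells and from 233 to 266 in Arntl-/- cells. In these 3 genes the WT level was lower at 48 h than at 24 h while the Arntl-/- level changed less. For *Ccl12* the WT level was higher at 48 h, going from 67.5 to 230, and the Arntl-/- level went from 75.9 to 61.6. *Ccl2* went from 1214 to 1843 in WT cells and from 996 to 1128 in Arntl-/- cells. *Nos2* was higher at 48 h in both, from 115 to 273 and from 274 to 523. These changes share the 48 h libraries with the genotype ratio, so each is given as a value.

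**Figure D3:**
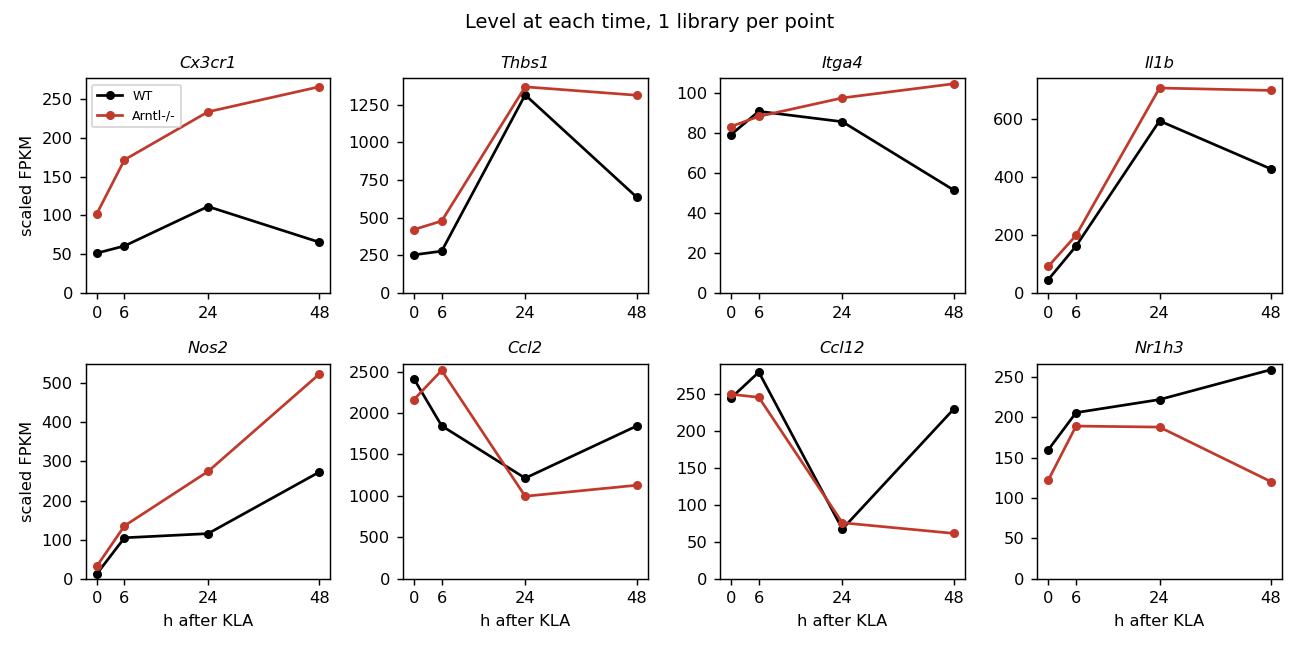
Scaled FPKM (y, linear axis from 0) is plotted against hours after KLA (x) for 8 genes in WT (black) and Arntl-/- (red) cells, 1 library per point. After 24 h the WT line drops in *Cx3cr1*, *Thbs1*, *Itga4* and *Il1b*. In *Ccl12* it climbs while the Arntl-/- line stays low, and in *Ccl2* it climbs further than the Arntl-/- line. In *Nr1h3* the 2 lines part, at 259 in WT and 120 in Arntl-/- cells at 48 h.

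Signalling genes were mostly within the limit. Of 37 genes of NF-κB, TLR4 and feedback signalling, 4 were higher and 2 lower (5.39% and 5.08% of all genes), with a median of 0.08, and the lower share is close to that of all genes. *Traf6*, which encodes the ubiquitin ligase that relays TLR4 signals, was at 32.1 and 56.7 scaled FPKM (ratio 0.82, 0.58 to 1.06), followed by *Bcl3* (0.69), *Rel* (0.62) and *Egr1* (0.60). *Egr2* (-0.71) and *Nfkbib* (-0.62), the gene for the inhibitor IκBβ, were lower. *Tlr4* was at -0.14 (-0.29 to 0.00) and *Rela*, which encodes p65, at -0.08 (-0.19 to 0.04).

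Of 39 type I interferon-stimulated genes compared, 1 was lower and none higher, where 5.08% and 5.39% of all genes were. Of the list 33 had a mean of at least 500 reads, where 0.902% of genes were lower and 0.722% higher. Their median was 0.04 and had been 0.40 at 24 h. The lower gene was *Oasl1*, an antiviral gene, at 201 and 130 scaled FPKM (ratio -0.64, -0.83 to -0.44), which had been at 0.50 at 24 h. The member not compared, *Ifi44l*, had 6 reads in WT and 92 in Arntl-/- cells, a mean just under the minimum, and a ratio of 3.96 (2.82 to 5.48). Of 29 interferon-γ-inducible GTPase and antigen presentation genes, 4 were higher and none lower (5.39% and 5.08% of all genes), with a median of 0.03. They were *Cd74*, the gene for the invariant chain of MHC class II (107 and 221 reads, ratio 1.10, 0.76 to 1.45), and the GTPase genes *Tgtp1* (1.01), *Iigp1* (0.91) and *Gbp4* (0.68). *Tgtp1* has a near-identical copy, *Tgtp2* (0.52), so the division of reads between them is uncertain. None of the 4 had a mean of 500 reads.

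Genes of alternative activation and of lipid handling held a few differences past the limit. Of 19 genes of alternative activation and resolution compared, 2 were higher and 1 lower, where 5.39% and 5.08% of all genes were. The median was -0.08. *Vegfa*, which encodes a growth factor of blood vessels, had the smaller rise of the 2, at 0.61 (0.53 to 0.70). The other gene is not reported here. *Gas6*, the gene for a ligand of the receptors that take up apoptotic cells, was at -0.61 (-0.71 to -0.51). *Gas6* was at -0.57 without size factors. Of 14 genes under liver X receptor (LXR) control or in cholesterol efflux, 3 were lower and none higher, against 5.08% and 5.39% of all genes. *Nr1h3*, the gene for LXRα, was at 259 and 120 (-1.10, -1.31 to -0.90), and it had been at -0.39, -0.12 and -0.24 at 0, 6 and 24 h. *Cd5l*, an LXR target that encodes a secreted macrophage protein, was at 105 and 27.2 (-1.94, -2.34 to -1.56), and *Scd1* was at -0.82 (-1.34 to -0.34). The efflux genes *Abca1* and *Abcg1*, LXR targets as well, were at 0.23 and -0.05, so the list did not move together (median -0.05).

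Of 26 sterol and fatty acid synthesis genes, 4 were lower (*Fads2*, *Lss*, *Mvk* and *Cyp51*) and 1 higher (*Dhcr7*), where 5.08% and 5.39% of all genes were, with a median of -0.17. *Mvk* and *Cyp51* were just past the limit, and without size factors they were at -0.55 and -0.54, which left 2 lower genes and 2 higher. None of these 5 had a mean of 500 reads. Of 30 genes of glycolysis and HIF-1 targets, 4 were higher and none lower (5.39% and 5.08% of all genes), and 25 had a ratio above 0, as 4819 of all 10212 genes did (median 0.11). They were *Ddit4* (0.62), *Vegfa* (0.61), *Egln3* (0.61) and *Higd1a* (0.60), all hypoxia-inducible, while the glycolytic genes *Ldha* (0.14), *Gapdh* (0.00) and *Pkm* (-0.15) were within the limit. *Hif1a* was at 0.29 (0.22 to 0.36).

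Cell cycle and DNA replication genes lay mostly on the lower side in Arntl-/- cells. Of 50 compared, 10 were lower past the limit (5.08% of all genes were), none was higher, and 41 had a ratio below 0 (median -0.26, against -0.02 for all genes compared). Those past the limit included genes of the replication machinery (*Mcm10* at -0.99, *Mcm2* at -0.82 and *Mcm6* at -0.61), of nucleotide supply (*Tyms*, -0.97), of DNA methylation upkeep (*Uhrf1*, -0.84) and the D-type cyclins *Ccnd1* (-0.80, -0.92 to -0.69) and *Ccnd2* (-0.66). *Mcm10* and *Tyms* had at most 122 reads in either library. Of the mitotic genes, *Ube2c* was lower (-0.67), whereas *Plk1* was at 0.48 (0.17 to 0.80) and *Cdk1* at 0.34 (0.07 to 0.60). The median had been -0.07, -0.07 and -0.37 at 0, 6 and 24 h. Between 24 and 48 h the median gene of the list changed by -1.17 in WT cells and by -1.02 in Arntl-/- cells. In bulk RNA, fewer cells in cycle and less RNA per cell cannot be told apart, and the same holds for every cell type marker below.

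Fibroblast and stromal markers had the lowest median of the lists other than the clock activators. Of 30 genes, 23 were compared, 12 were lower past the limit (5.08% of all genes were), none was higher, and the median was -0.66. *Sparc* was at 283 scaled FPKM in WT and 111 in Arntl-/- cells (ratio -1.35, -1.52 to -1.18), and the collagen genes *Col1a1*, *Col1a2* and *Col3a1* were at 525 and 289, 292 and 181, and 187 and 89.7. *Acta2* (-1.04), *Tagln* (-1.20), *Postn* (-1.22), *Timp1* (-1.13), *Loxl1* (-0.95), *Col6a1* (-0.70), *Bgn* (-0.68) and *Fbn1* (-0.66) made up the rest. The summed level of the 30 genes was 3143 in WT and 2196 in Arntl-/- cells at 48 h, and 1799 to 1929 and 1411 to 1524 at the earlier times. The median was -0.36, -0.41 and -0.52 at 0, 6 and 24 h, so it lay below that of all genes before KLA too. Not all stromal genes took part. *Pdgfrb* (0.01) and *Dcn* (0.55) were within the limit, *Pdgfra* had 20 reads in WT and 21 in Arntl-/- cells, *Lum* had 21 and 24, and *Thy1* had none in either. Whether the share of stromal cells bears on the other groups was not tested.

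The remaining groups held few genes past the limit, where 5.39% of all genes compared were higher and 5.08% lower. Of 82 cytoplasmic ribosomal protein genes none was past the limit, with ratios from -0.23 to 0.26 and a median of -0.02. The medians at 0, 6 and 24 h were -0.37, 0.58 and -0.33. The Arntl-/- library had more reads on genes than WT at 0 h (18166570 against 13080313) and 24 h (15350449 against 10685707). The WT library had more at 6 h (27036775 against 15461824) and 48 h (9191160 against 8587556). Whether depth, with up to 3 tags counted at a position, bears on these medians was not tested. The median at 48 h was 0.03 without size factors, so its sign depends on the scaling. Respiratory chain and ATP synthase genes (82 compared, 1 higher and 1 lower), mitochondrial ribosomal proteins (77, 2 and 1), proteasome (47, 1 and 1), lysosome (40, 0 and 1), apoptosis and survival (27, 0 and 0), Nrf2 and metal response (21, 0 and 1), heat shock (12, 0 and 1) and the unfolded protein response with ATF4 targets (35, 1 and 1) held at most 3 such genes each. The median of the heat shock genes was -0.17, with 11 of 12 below 0. In the ATF4 list 25 of 35 genes had a ratio below 0 (median -0.18), *Wars* (-0.61) among them. *Slc40a1*, which encodes the iron exporter ferroportin, was the lower gene of the Nrf2 list at -0.69 (-0.85 to -0.52). Of 7 nuclear noncoding RNAs compared, *Kcnq1ot1* (1.11), which lies antisense to *Kcnq1* and was counted on both strands, and *Snhg1* (0.82) were higher, and the median of the 7 was 0.29.

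**Figure D4:**
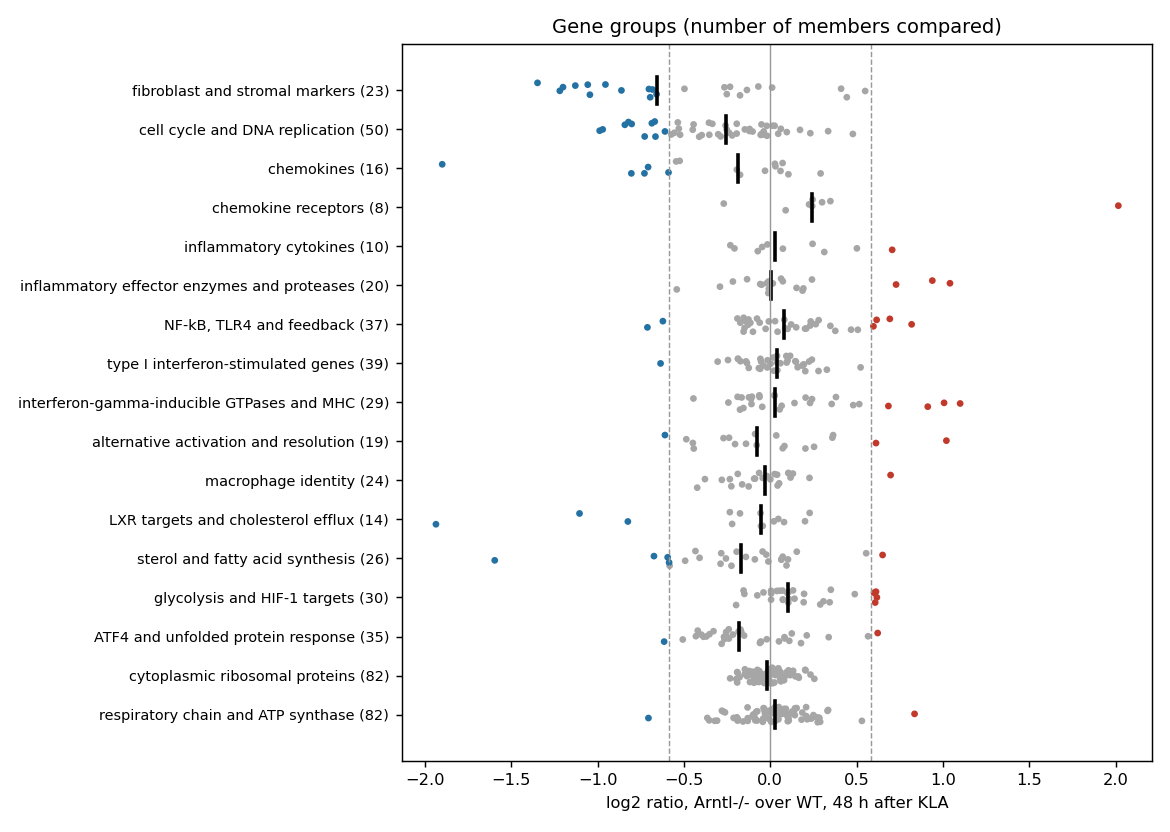
Each point is a gene compared at 48 h, placed by its log2 ratio of Arntl-/- over WT (x) in 1 of 17 gene groups (y, with the number compared). Black bars are medians, dashed lines mark 1.5-fold, and red and blue points lie past them; the stromal bar is at -0.66 and the cell cycle bar at -0.26, while the bars of cytokines and ribosomal proteins are at 0.03 and -0.02.

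Of the 4433 genes with at least 500 reads, those most different from WT included members of the groups above and genes of none of them. Among the highest were *Cadm1*, *Cx3cr1*, *Thbs1*, *Itga4* and *Nos2*, followed by *Sorl1* (0.87), which encodes a sorting receptor, and *Slfn4* (0.78). The lowest were *Sparc*, *Col3a1* and *Col1a1*, followed by *Fam177a* and *1700047I17Rik2* (both -0.82), which have nearly the same reads and cannot be told apart, and by *Slc13a3* (-0.81), the gene for a dicarboxylate transporter. *Cebpb*, which encodes a transcription factor of the inflammatory response, was at 992 and 1608 scaled FPKM (0.70, 0.62 to 0.78).

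A further 41 genes differed at least 2-fold at 48 h while their ratio lay within 0.3 of 0 at 0, 6 and 24 h, 19 of them higher and 22 lower. The highest 5 were *Smug1* (1.56), *C030006K11Rik* (1.45), *Ctsf* (1.45), *Pvrl1* (1.42) and *Kctd12b* (1.37), and the lowest 5 were *Fads3* (-1.96), *Ccl12* (-1.90), *Atp10a* (-1.59), *Hlcs* (-1.54) and *Zfp747* (-1.52). All had at most 231 reads in either library at 48 h, where ratios were widely spread.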

How the data were processed

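PolyA RNA of BMDMs was sequenced paired-ended in 8 libraries, 1 for each of 2 genotypes at 0, 6, 24 and 48 h after KLA, grouped by their titles. Per the labels and the file headers, the authors used STAR for alignment to mm9 and HOMER for the FPKM they deposited. HOMER counted both strands of RefSeq exons, allowed up to 3 tags at a position, retained a single transcript for every gene, set each total to 10000000 reads and corrected for length in kb. Versions are not given in the sources used here. Counting both strands cannot separate a gene from an overlapping one on the other strand.

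Of the value columns, 4 were matched to no sample and not used. A broken line (1) was dropped. The 29 samples of other assays were not used. Low FPKM times length came out as a whole number of reads in at least 99.96% of the values examined, within 0.1 of a read, from which reads and depth were derived (8587556 to 27036775 on genes). Depth and intervals cover counting error only, since duplicate reads are not independent molecules. Size factors (median of ratios over the 8 libraries) were 0.918 and 0.947 at 48 h, and ratios used a pseudocount of 0.1 and genes with a mean of at least 50 reads. Intervals are Clopper-Pearson at 95% on the reads of the 2 libraries. Values at 0 reads were set to a floor of 3 reads for bounds.

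The members and lists were chosen with earlier results of these data known. Named genes are those the study names, the clock lists, the 10 highest and 10 lowest ratios whose interval excludes 0, up to 3 highest and 3 lowest of each list, the 5 highest and 5 lowest that were flat at other times, and the 5 highest and 5 lowest with the opposite direction at 24 h. Also named, after their values were seen, are list members past 1.5-fold, markers given as contrast, genes at all 4 times and those with at least 500 reads. Alternatives were 3 other scalings, pseudocounts of 1 and 0.01, other minimums of reads, a 2-fold limit and lowess trends (fraction 0.3) over level and length. Some genes that these rules select are not reported here. Steps were tested on simulated data. Tools were scipy 1.17.1, statsmodels 0.14.6, pandas 2.3.3, numpy 2.4.6 and matplotlib 3.10.9 under Python 3.11.15.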

Additional observations from a re-analysis of the deposited data

Results flagged for a closer look

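In 14 of the genes named, the difference at 48 h was past 1.5-fold and was past it in the other direction at an earlier time, with a mean of at least 50 reads at both times. Genes such as *Ciart*, *Arntl2*, *Tgfb3* and *Mycn*, which also changed sign, had fewer reads at 1 of the times or both. The difference between the times was not tested, since there was 1 library per condition.

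Of the genes named for such a change of direction, *Cebpb* had the most reads among those higher in Arntl-/- cells at 48 h. Its ratio was 0.70 at 48 h and -0.88 at 0 h, with 0.87 at 6 h. *Npdc1*, at 2.84, had been at -0.72 at 0 h. *Olfml3* was at 2.11 after -1.70 at 24 h, *Sbsn* at 2.71 after -1.80 and *Svip* at 1.47 after -0.69. *Rdm1* was at 1.75 after -0.94 at 0 h and -1.06 at 24 h, and *Mrpl47*, which encodes a mitochondrial ribosomal protein, at 0.60 after -0.75 at 24 h.

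Of those lower at 48 h, *Scd1*, the gene for a fatty acid desaturase, was at -0.82 after 0.59 at 0 h and 0.71 at 6 h. *Egr2*, a transcription factor gene, was at -0.71 after 0.74 at 24 h, and *Fgfr1*, a growth factor receptor gene, at -1.06 after 0.65. *Armcx1* was at -1.21 after 0.68 at 24 h, *B3gnt9* at -1.87 after 0.71, *Fut4* at -1.26 after 1.15 and *Map6* at -1.43 after 0.80. Over all genes with that minimum at both times, 56 were past the limit at 48 h and past it in the other direction at 24 h, 25 of them higher and 31 lower at 48 h.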

How the results depend on the processing

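No paired analysis was possible because each condition had 1 library, and for the same reason no library could be left out. The counts of 550 higher and 519 lower genes depended on the minimum of reads. They were 899 and 783 with a mean of at least 20 reads, 320 and 308 with at least 100 reads, 2750 and 2096 with no filter, and 32 and 40 with at least 500 reads, a minimum chosen after seeing the data. At a limit of 2-fold they were 125 and 125. Under the other scalings, pseudocounts and trends the counts stayed between 516 and 629 higher and between 448 and 520 lower. Of 148 compared genes past the limit that are named by rule, belong to a list or were past it at all 4 times, 136 were past it under all 7 of those settings and 12 were not. These were *Bag3*, *Cd79b*, *Csnk1e*, *Cxcl1*, *Cyp51*, *Egr1*, *Etl4*, *Gas6*, *Mcm6*, *Mvk*, *Nfkbib* and *Wars*. The chemokines then had 4 to 5 lower genes, the cell cycle genes 9 to 10 and the sterol genes 2 to 4. The median of the cytoplasmic ribosomal proteins ran from -0.05 to 0.03, and the stromal median from -0.66 to -0.61 with 12 genes lower under each scaling. The depth of the 48 h libraries limits genes under 500 reads most, where ratios spread widest.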

Other observations

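Of genes with at least 50 reads in 1 of the 2 libraries at 48 h and at most 3 in the other, 3 were found in Arntl-/- cells and 1 in WT cells. The former were *Mycn*, *Ranbp3l* and *Ifi202b*, an interferon-inducible gene, and the latter was *Tcf7l1*, a transcription factor gene of the Wnt pathway. Among the 8 libraries, genes with at least 50 reads in 1 library and at most 6 in each of the others numbered 4 in the Arntl-/- library at 48 h (*Ifi202b*, *Ifi44l*, *Mycn* and *Ranbp3l*), 1 in the Arntl-/- library at 0 h (*Muc19*) and 0 in each of the other 6.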
